A study of Mus musculus with 13 samples.

Results

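The expression of 10 immediate-early genes, Fos, Fosb, Jun, Junb, Egr1, Egr2, Nr4a1, Dusp1, Ier2 and Atf3, was examined in 13 mouse aortas by RNA sequencing. They are 10 of the 54532 genes in the deposited count table, and all 10 were among the 15811 genes that passed the filter on low counts. They were picked by symbol as a family after their levels in these same aortas had been seen, so their levels, their group differences and their covariation are given here as descriptions. All the mice were ApoE knockout and received angiotensin II (Ang II, AngII) from a subcutaneous pump, at 1000 ng/kg/min for up to 28 days from 10 weeks of age. Of these, 6 were given an empty adenovirus (Ad-sham) and 7 an adenovirus carrying mouse Fam3a (Ad-FAM3A), in 5 weekly injections into the tail vein. The study's methods name the EF1A promoter for the Fam3a vector, and also a vector named pAd/CMV/V5-DEST. Each aorta was 1 library, and no aorta without AngII was analysed here. Fam3a itself averaged 24.4 CPM (the read count of a gene scaled to library size, by TMM) in Ad-sham and 24.0 CPM in Ad-FAM3A aortas, a log2 fold change of -0.03 ± 0.16 (SE), so the RNA did not mark the group labels. The defining markers of the labelled tissue were present, since all 8 smooth muscle markers had counts in every library, Myh11 at 494 CPM or more and Acta2 at 1368 CPM or more.

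Immediate-early genes are transcribed within minutes of a stimulus, without a need for new protein, because their transcription factors already sit on the promoter and wait for phosphorylation. Growth factors, AngII, stretch and calcium act through MAP kinases on serum response factor with its ternary complex partners, and through protein kinases on CREB. The products are mostly transcription factors, or enzymes that switch the signal off again, and their mRNAs are short-lived. In the vessel wall they are known to be induced in smooth muscle and endothelium by AngII and by injury.

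The stretches just upstream of the start sites are shown because CREB sites and serum response elements are where the signals above arrive. RefSeq windows on build GRCm38.p6 were matched by symbol for 8 of the 10 genes, all but Egr1 and Ier2. Of these 8, 7 held TGACG, the core of the cAMP response element, in the 250 bases before the start on either strand, whereas 19.8% of the 27025 genes with a window did. Jun was the one without it. The full element TGACGTCA occurred in Dusp1 alone (1.77% of genes), a CArG box, the core of the serum response element, in Egr2 alone (1.62% of genes), and TATAAA in Fos alone (14.3% of genes). The EGR motif GCGNGGGCG was found in Fosb and Nr4a1 (5.33% of genes) and the heat shock motif GAANNTTC in Jun (7.73% of genes). No window held the AP-1 motif TGANTCA (7.82% of genes) or the ETS core CCGGAAG (7.83% of genes). Bases farther upstream than 250 were not searched. A motif not found here, the CArG box of the serum response element included, may therefore lie outside the window. A gene with several start sites counted as holding a motif when any of its windows did, which applies to Egr2 with 5 windows, and TGACG lies within TGACGTCA. Below, 6 genes are shown 5′ to 3′ on their own strand, 4 that moved together in these aortas (Fos, Jun, Nr4a1, Dusp1) and then the pair that did not (Egr2, Atf3). Capitals mark TGACG or its complement, TATAAA and the CArG box. The 47 bases nearest the Dusp1 start, which GENCODE places in an exon, were left off.
Fos, chr12:85473640-85473889, plus strand: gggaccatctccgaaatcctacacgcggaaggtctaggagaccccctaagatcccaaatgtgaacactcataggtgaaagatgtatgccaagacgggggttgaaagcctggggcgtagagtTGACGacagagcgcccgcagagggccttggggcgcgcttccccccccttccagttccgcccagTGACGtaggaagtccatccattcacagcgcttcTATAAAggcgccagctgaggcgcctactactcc
Jun, chr4:95052223-95052472, minus strand: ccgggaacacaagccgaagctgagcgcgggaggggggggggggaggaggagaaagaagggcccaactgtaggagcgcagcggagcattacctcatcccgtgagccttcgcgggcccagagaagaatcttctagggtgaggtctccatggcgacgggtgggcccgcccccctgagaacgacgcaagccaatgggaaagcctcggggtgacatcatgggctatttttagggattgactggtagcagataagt
Nr4a1, chr15:101266596-101266845, plus strand: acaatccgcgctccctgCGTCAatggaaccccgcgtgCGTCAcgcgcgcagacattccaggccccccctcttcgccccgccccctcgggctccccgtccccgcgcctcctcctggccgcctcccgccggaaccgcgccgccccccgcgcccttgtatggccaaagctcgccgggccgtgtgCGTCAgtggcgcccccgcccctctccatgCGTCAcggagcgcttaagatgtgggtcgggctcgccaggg
Dusp1, chr17:26508520-26508722, minus strand: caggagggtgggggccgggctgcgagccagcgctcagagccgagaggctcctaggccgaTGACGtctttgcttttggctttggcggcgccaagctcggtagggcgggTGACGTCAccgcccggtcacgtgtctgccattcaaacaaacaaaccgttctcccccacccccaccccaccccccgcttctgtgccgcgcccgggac
Egr2, chr10:67537619-67537868, plus strand: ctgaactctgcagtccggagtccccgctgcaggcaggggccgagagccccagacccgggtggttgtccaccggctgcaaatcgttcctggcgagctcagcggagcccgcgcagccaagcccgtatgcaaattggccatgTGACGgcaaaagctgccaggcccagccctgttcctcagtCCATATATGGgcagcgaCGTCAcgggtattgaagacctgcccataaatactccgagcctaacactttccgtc
Atf3, chr1:191183334-191183583, minus strand: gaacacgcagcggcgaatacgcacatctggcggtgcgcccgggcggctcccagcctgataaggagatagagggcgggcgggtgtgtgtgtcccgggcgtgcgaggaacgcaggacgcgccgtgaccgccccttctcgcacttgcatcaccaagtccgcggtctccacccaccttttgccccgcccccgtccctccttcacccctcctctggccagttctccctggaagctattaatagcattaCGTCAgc

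Of the genes shown, Fos, Nr4a1, Dusp1, Egr2 and Atf3 held TGACG and Jun did not. In Fos the core lay 66 to 62 and 129 to 125 bases before the start, with TATAAA 33 to 28 bases before it. Nr4a1 held 4 copies within its 250 bases. In Egr2 the CArG box lay 72 to 63 bases before the start, and in Atf3 the only copy of the core lay 7 to 3 bases before it, in 7 bases that GENCODE assigns to an exon.

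Levels were compared between genes per kilobase of gene model. Dusp1, the phosphatase that inactivates MAP kinases, was the most abundant with a median of 68.9 CPM per kb, and exceeded the next gene, Junb, in 12 of 13 aortas by 1.08 ± 0.72 on the log2 scale (mean ± SD of the difference within an aorta). Junb, Ier2, Jun, Egr1, Nr4a1 and Fos then followed with medians from 28.8 down to 22.0 CPM per kb, and neighbours in that order differed by less than the SD of their difference. Atf3 had a median of 9.33 CPM per kb and did not differ from Fos beyond that spread. It exceeded Fosb in 13 of 13 aortas by 2.79 ± 1.25 (log2). Fosb and Egr2 were lowest, at 1.58 and 1.47 CPM per kb, and were not separated from each other. The lowest single count of any of these genes was 42, in Egr2, and a value of 3 counts equalled 0.140 to 0.221 CPM, which covers counting error only.

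Several of these genes had a wide spread between aortas of the same group. The within-group SD of log2 CPM was 1.15 for Fosb, 1.10 for Nr4a1, 1.01 for Fos and 0.98 for Atf3, which 91.9%, 91.0%, 89.0% and 88.3% of tested genes did not reach. It was 0.51 for Ier2 and 0.54 for Egr2, near the median of all tested genes of 0.46. Counting error was smaller than these spreads in every gene. It came to 0.03 (log2) in Dusp1 against a total SD of 0.64 over the 13 aortas, to 0.07 in Fos against 1.10, and to 0.17 in Egr2 against 0.52, the closest approach.

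Among the AP-1 subunits, Fos (ENSMUSG00000021250, chromosome 12, 85473890 to 85477273), the labile partner of Jun proteins, ran from 24.7 through a median of 64.3 to 109 CPM in the 6 Ad-sham aortas and from 10.2 through 25.5 to 66.4 CPM in the 7 Ad-FAM3A aortas. Ad-sham6 was highest and Ad-FAM3A2 lowest, and the groups overlapped. The log2 fold change of Fos, Ad-FAM3A minus Ad-sham, was -0.85 ± 0.48 (SE). Its paralog Fosb ran from 5.16 through 10.2 to 25.0 CPM in Ad-sham and from 2.77 through 7.03 to 46.0 CPM in Ad-FAM3A, so that Ad-FAM3A aortas held both the highest value, in Ad-FAM3A1, and the lowest, in Ad-FAM3A2. The log2 fold change of Fosb was 0.08 ± 0.61, and it was -0.73 without Ad-FAM3A1. Jun, the partner that binds DNA with Fos, ran from 72.4 through 100.2 to 212 CPM in Ad-sham and from 55.7 through 75.5 to 163 CPM in Ad-FAM3A, and its log2 fold change was -0.44 ± 0.30, which was -0.20 without Ad-sham2 and -0.66 without Ad-FAM3A1.

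Junb, the less active Jun paralog, showed the widest gap between groups among the genes that were lower. Its values in Ad-sham aortas were 29.1, 98.6, 99.3, 125, 155 and 168 CPM, and in Ad-FAM3A aortas they were 29.2, 33.3, 44.7, 55.5, 60.9, 66.3 and 72.7 CPM. Every Ad-FAM3A aorta therefore lay below 5 of the 6 Ad-sham aortas, and Ad-sham1 lay below all of them. The log2 fold change of Junb was -1.12 ± 0.33, and edgeR (quasi-likelihood, Benjamini-Hochberg) gave an adjusted p of 0.810. Junb (chromosome 8, 84974484 to 84978718, minus strand) overlaps the coding gene Prdx2 on the other strand, which had 31899 counts in all against 17324 for Junb. Whether reads were assigned by strand is not given in the sources used here, so the Junb count is uncertain. The correlation of Junb with Prdx2 over the aortas was 0.04, whereas that with Egr1 was 0.80. Jun overlaps the antisense gene Junos, which had 150 counts against 21647 for Jun.

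**Figure D1:**
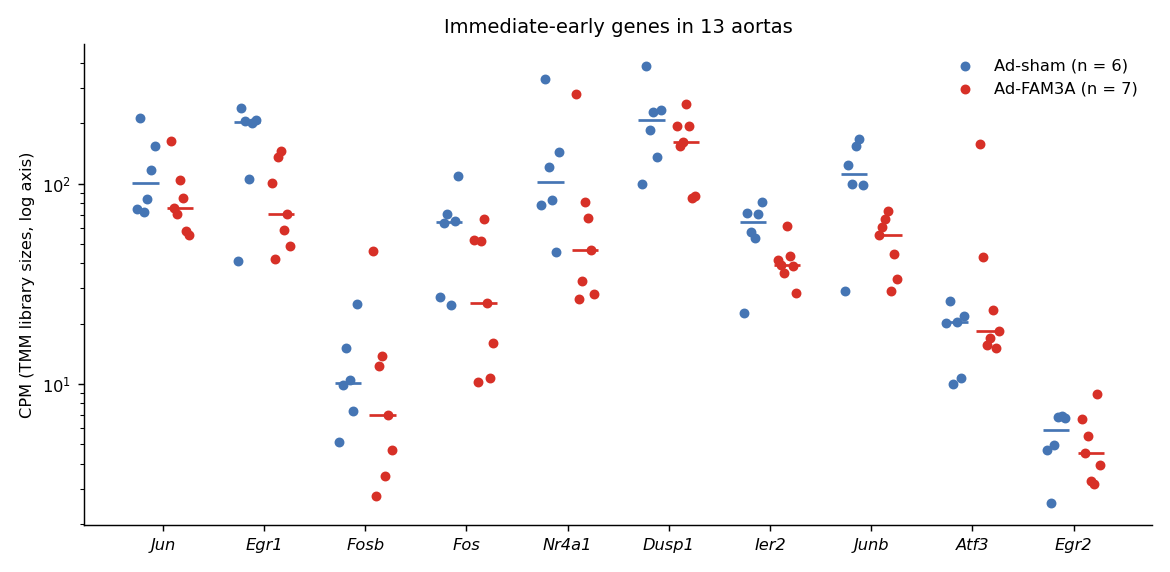
CPM of each gene in each aorta on a log axis, Ad-sham in blue (n = 6) and Ad-FAM3A in red (n = 7), with a line at each group's median. The groups overlap for every gene, and 1 Ad-sham aorta lies far below the others for Junb and Ier2, while 1 Ad-FAM3A aorta lies far above the others for Atf3.

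Of the zinc finger factors, Egr1, which binds GC-rich sites and is induced by AngII and shear, was measured at 41.0, 106, 201, 205, 208 and 240 CPM in Ad-sham aortas and at 42.2, 48.7, 58.9, 70.2, 100.4, 136 and 146 CPM in Ad-FAM3A aortas. Of the Ad-sham aortas 4 lay above every Ad-FAM3A aorta and Ad-sham1 lay below them all. The log2 fold change of Egr1 was -0.95 ± 0.39, with an adjusted p of 0.810 by the same test. Its paralog Egr2 stayed within 2.55 to 6.92 CPM in Ad-sham and 3.16 to 8.87 CPM in Ad-FAM3A aortas, with medians of 5.87 and 4.55 CPM, and its log2 fold change was -0.09 ± 0.30. Nr4a1, an orphan nuclear receptor, ranged from 45.4 through 102 to 334 CPM in Ad-sham and from 26.6 through 46.6 to 279 CPM in Ad-FAM3A, and its log2 fold change was -0.74 ± 0.59, or -1.50 without Ad-FAM3A1 and -0.24 without Ad-sham2. Its highest values, in Ad-sham2 and Ad-FAM3A1, came from different groups.

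Among the feedback and remaining genes, Dusp1 ran from 99.4 through 207 to 387 CPM in Ad-sham and from 85.0 through 161 to 249 CPM in Ad-FAM3A, and its log2 fold change was -0.40 ± 0.32, or -0.14 without Ad-sham2. Ier2, a small nuclear protein of the early response, was measured at 22.5, 53.8, 57.4, 71.0, 71.3 and 81.0 CPM in Ad-sham and at 28.4, 35.8, 38.9, 39.5, 41.4, 43.5 and 61.8 CPM in Ad-FAM3A, and its log2 fold change was -0.53 ± 0.25. All but 1 of the Ad-FAM3A aortas lay below 5 of the Ad-sham aortas. Atf3, a stress-induced factor of the CREB family that mostly represses, was measured at 10.03, 10.7, 20.1, 20.5, 21.9 and 26.0 CPM in Ad-sham and at 15.2, 15.6, 17.1, 18.4, 23.3, 43.3 and 157 CPM in Ad-FAM3A. The value of 157 CPM, in Ad-FAM3A1, was 3.63 times the next and 7.83 times the median of all aortas. The log2 fold change of Atf3 was 1.19 ± 0.56, and it was 0.30 without that aorta.

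Between the groups, 8 of the 10 genes had a lower fitted level in Ad-FAM3A aortas and the median log2 fold change was -0.49, against 0.003 over all genes tested, of which 9.18% lay at or below -0.49. Without Ad-sham2 the median was -0.23, and 7 to 9 of the 10 were lower over the alternatives, with 7 without Ad-FAM3A4 or Ad-FAM3A5 and 9 with limma-voom or the replicate block and without Ad-sham1 or Ad-FAM3A1. A call required an adjusted p under 0.05 together with a log2 fold change beyond 1 in either direction. By edgeR's quasi-likelihood test 0 of the 10 were called, with adjusted p from 0.810 to 0.979, and the background was 0% of the 15811 genes. DESeq2, run without the filter on low counts, called 0 of the 10 and 10 of the 30727 genes it tested. At an unadjusted p under 0.05, 2 of the 10 were lower, Junb and Egr1, and 0 were higher, where 2.93% of all genes were lower and 5.91% passed in either direction. In either direction that count by edgeR ran from 1 to 5 of the 10 on leaving out 1 aorta, with 5 without Ad-FAM3A4, 4 lower and Atf3 higher, and 1, Junb, without Ad-sham2, Ad-sham3, Ad-sham6 or Ad-FAM3A2. The unadjusted p of Egr1 was 0.056 with limma-voom and 0.13 with the replicate block in edgeR, and Atf3 was higher at an unadjusted p of 0.025 with DESeq2 and 0.045 with library totals in edgeR. For 0 of the 10 genes did the 7 Ad-FAM3A aortas all lie outside the range of the Ad-sham aortas, against 0.0949% of genes. All 7 Ad-FAM3A aortas lay below the Ad-sham median for Junb, Egr1 and Ier2, 6 of 7 for Fos, Nr4a1 and Dusp1, 5 of 7 for Jun and Egr2, and 4 of 7 for Fosb and Atf3. Of all genes tested, 4.22% had all 7 below that median and 18.6% at least 6. Since these are whole aortas, fewer cells of a responding type and less RNA per cell cannot be told apart. Of the cell type markers examined beside these genes, 0 were called by edgeR, DESeq2 or limma-voom, but the fitted differences of several lists lay in one direction. All 8 adipocyte markers were lower in Ad-FAM3A aortas, with a median log2 fold change of -0.70, 3 of them at an unadjusted p under 0.05, and with sums of 4828 to 16434 CPM in Ad-sham and 3422 to 10071 CPM in Ad-FAM3A. All 6 B cell markers were higher, each at an unadjusted p under 0.05 by edgeR, and Ad-FAM3A6 and Ad-FAM3A7 had summed levels of 704 and 261 CPM, where no other aorta exceeded 47.0 CPM. All 8 T cell and all 8 smooth muscle markers were higher as well, with median log2 fold changes of 1.36 and 0.22 and 1 and 0 of them at an unadjusted p under 0.05. All 8 fibroblast, 8 sympathetic neuron, 6 Schwann cell, 4 kidney and 5 mesothelium markers were lower, with median log2 fold changes of -0.36, -0.69, -0.60, -1.01 and -1.97, and 1 of these, of mesothelium, had an unadjusted p under 0.05. The mesothelium sums were 144 CPM in Ad-sham3, 40.3 in Ad-sham1, 26.4 in Ad-FAM3A1 and 14.3 in Ad-FAM3A6, and no other aorta exceeded 4.88 CPM. All 5 red blood cell markers were higher, with a median log2 fold change of 0.70 and 0 at an unadjusted p under 0.05 by edgeR. Without Ad-FAM3A6 and Ad-FAM3A7 the median log2 fold change of the 10 genes was -0.34, and the part of the markers was otherwise not tested.

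**Figure D2:**
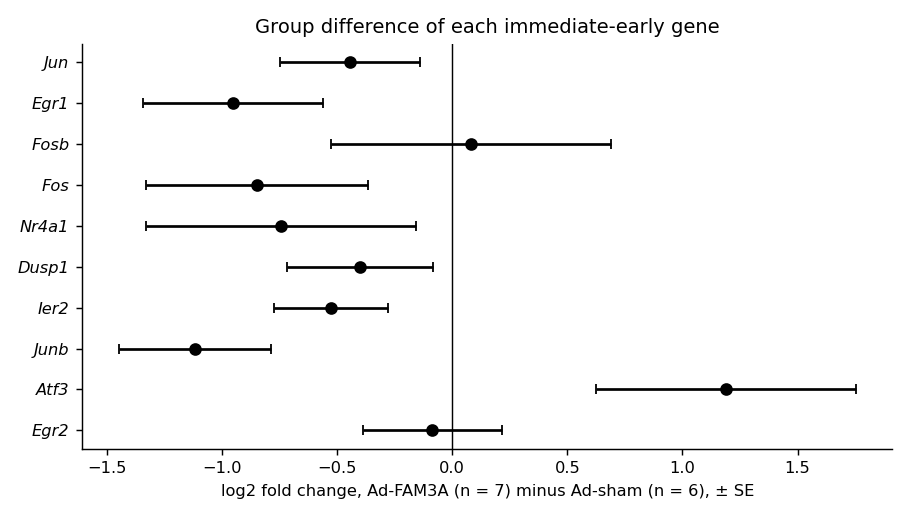
Log2 fold change of each gene, Ad-FAM3A (n = 7) minus Ad-sham (n = 6), with its standard error as the bar. Points run from -1.12 for Junb to 1.19 for Atf3, 8 of 10 lie left of 0, and 0 of the 10 genes were called.

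The aortas were next placed on a common scale. An immediate-early score, the mean over the 10 genes of log2 CPM after subtracting each gene's mean over the 13 aortas, was highest in Ad-FAM3A1 at 0.84, followed by Ad-sham6 at 0.79 and Ad-sham2 at 0.74. Of the 10 genes in Ad-FAM3A1, Atf3 lay farthest above its mean, by 2.82 (log2). The score was lowest in Ad-FAM3A7 at -0.87, then Ad-FAM3A2 at -0.63 and Ad-sham1 at -0.61. The score was 0.26 ± 0.51 (SD, n = 6) in Ad-sham and -0.23 ± 0.59 (SD, n = 7) in Ad-FAM3A aortas, and its range of 1.71 (log2) corresponded to 3.28-fold. On this score, in which Atf3 weighs as much as any other gene, the difference between the group means was smaller than the SD of either group. Both groups held aortas at either end of it. The order at the upper end differed on the first principal component, given below. In Ad-sham6 all 10 genes lay above their median over the aortas, and in Ad-FAM3A7 all 10 lay below.

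**Figure D3:**
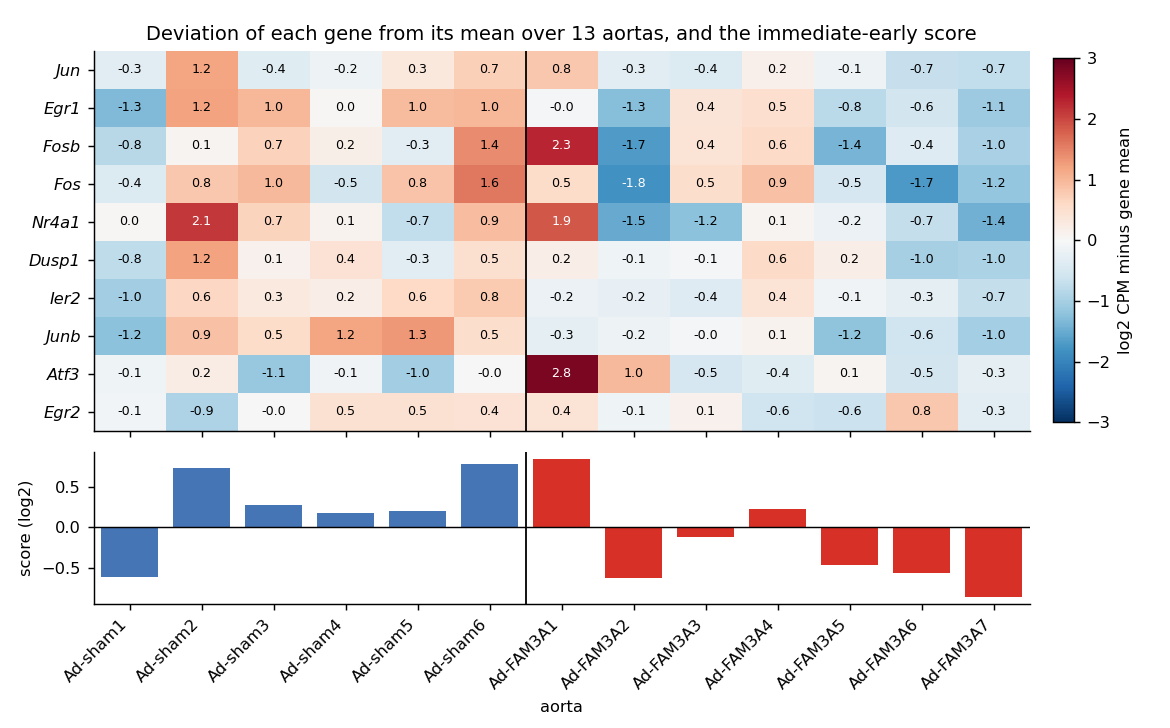
Upper part, log2 CPM of each gene minus its mean over the 13 aortas, with genes in rows ordered by their r with the other 9 and aortas in columns. Lower part, the mean of the 10 rows (the immediate-early score) for each aorta, from -0.87 in Ad-FAM3A7 to 0.84 in Ad-FAM3A1, with Ad-sham in blue and Ad-FAM3A in red.

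The genes covaried from aorta to aorta. Over the 45 pairs the median Pearson r of log2 CPM was 0.49, with 36 pairs above 0 and 22 above 0.5, whereas the median over all pairs of tested genes was -0.008 and 10.8% of them reached 0.49. The first principal component held 54.2% of the variance of the 10 standardized genes and the second 17.9%. On the first component Ad-sham2 (3.77) and Ad-sham6 (3.16) lay above Ad-FAM3A1 (1.91), the aorta with the highest score. Ad-FAM3A7 was lowest on both, with -3.52 on the component. All the points come from the same 13 libraries. Within the groups the median r of the 45 pairs was 0.40 among the Ad-sham and 0.47 among the Ad-FAM3A aortas. The share of all gene pairs that reach such values within a group of 6 or 7 aortas was not computed.

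The r of each gene with the mean of the other 9 was 0.83 for Jun, 0.77 for Egr1 and Fosb, 0.75 for Fos, 0.74 for Nr4a1, 0.72 for Dusp1, 0.71 for Ier2 and 0.58 for Junb. It was 0.11 for Atf3, or 0.35 after centring on group means. For Egr2 it was -0.01, or -0.06 after centring on group means. On leaving out 1 aorta the value of Egr2 ran from -0.13 without Ad-FAM3A1 to 0.29 without Ad-sham2. Without Egr2 and Atf3, a choice made after seeing these values, the median r of the remaining pairs was 0.65 and the first component held 67.6%. The closest pairs were Fos with Egr1 and Egr1 with Ier2 (both 0.85), Junb with Ier2 (0.81), Jun with Nr4a1 (0.81) and Junb with Egr1 (0.80). The most opposed was Dusp1 with Egr2 (-0.42).

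The genes differed in amplitude as well. For each log2 unit by which the mean of the other 9 was higher, Fosb and Nr4a1 were higher by 1.55, Fos by 1.48 and Egr1 by 1.26. Junb was higher by 0.85, Jun by 0.83, Dusp1 by 0.76 and Ier2 by 0.64. Atf3 had a slope of 0.17 and Egr2 of -0.01. From the lowest to the highest aorta the range was 16.6-fold in Fosb, 12.6-fold in Nr4a1, 10.7-fold in Fos and 5.85-fold in Egr1. It was 15.7-fold in Atf3, 5.77-fold in Junb, 3.81-fold in Jun and 3.59-fold in Ier2.

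**Figure D4:**
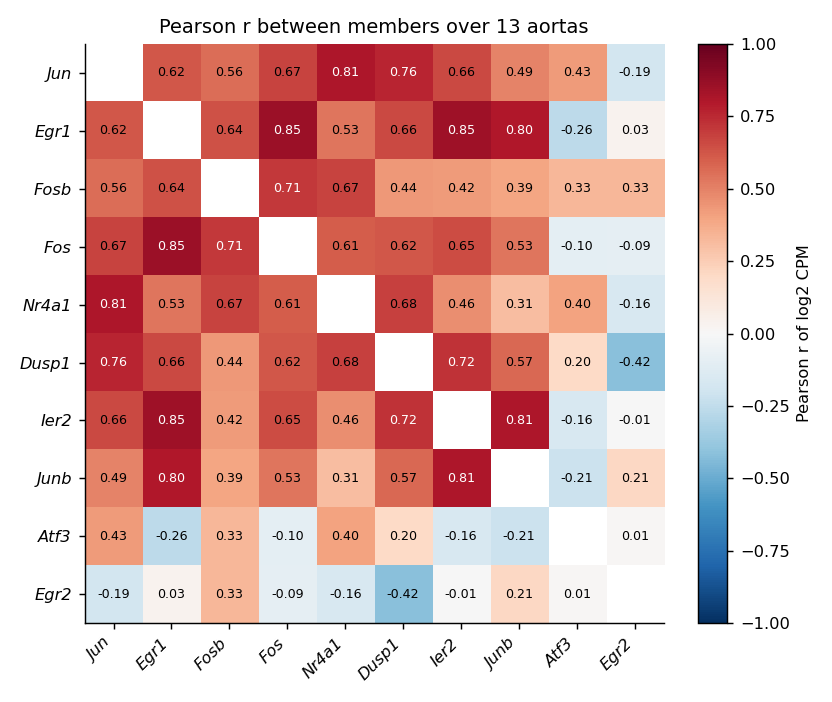
Pearson r of log2 CPM between each pair of genes over 13 aortas, in the order of their r with the other 9. Of the 45 pairs 36 are above 0, and the pairs of Atf3 and Egr2 lie between -0.42 and 0.43.

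The genes were divided along the second component, on which Atf3 (-0.66), Nr4a1 (-0.35) and Jun (-0.27) lay at one end and Junb (0.36), Egr1 (0.28) and Ier2 (0.25) at the other. Ad-FAM3A1 was the most extreme aorta on this axis at -3.18, and Ad-sham5 stood at the other end at 2.35. Ad-FAM3A1 was the highest of 13 for Atf3 and Fosb and second for Jun and Nr4a1, but eighth for Egr1 and Ier2 and ninth for Junb. Without it the r of Atf3 with the other 9 went from 0.11 to -0.28, while that of Egr1 went from 0.77 to 0.90, that of Ier2 from 0.71 to 0.86 and that of Junb from 0.58 to 0.73. Within the Ad-FAM3A aortas Atf3 had an r of 0.78 with Jun and 0.70 with Nr4a1, and within the Ad-sham aortas one of 0.51 and 0.58. Over all aortas these r were 0.43 and 0.40, and without Ad-FAM3A1 they were 0.18 and -0.01.

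Other genes of the early response were then examined in a pair of lists. Of 48 tested genes, 33 had an r above 0 with the score and 10 an r above 0.5 (20.8%), against 52.7% and 7.14% of all tested genes. The list of transcription factors, as a mean, had an r of 0.50 (Spearman's rho 0.65) and the list of signalling, feedback and secreted genes an r of 0.36 (rho 0.43). The genes that followed most closely were Zfp36 (0.83), whose protein destabilizes AU-rich mRNAs, Btg2 (0.73), an antiproliferative gene, Plk3 (0.73), a stress kinase, Jund (0.72), the third Jun protein, Nr4a2 (0.70), an Nr4a1 paralog, Klf4 (0.69), a regulator of smooth muscle phenotype, and Rhob (0.64), a small GTPase. Zfp36 was also among the 10 highest of all 13576 genes ranked. Pmaip1, a pro-apoptotic BH3 gene, ran the other way (-0.73).

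Between the groups the other early genes had fitted differences in both directions, 24 higher and 24 lower. By edgeR's quasi-likelihood test 0 of the 48 genes were called, and 10 of 48 had an unadjusted p under 0.05, 5 lower and 5 higher, where 5.91% of all genes did. DESeq2 called 1 of the 48, Rasd1, and 10 of all 30727 genes it tested. Nr4a3, the third member of the Nr4a family, averaged 20.6 ± 8.04 CPM (SD, n = 6) without and 83.9 ± 83.9 CPM (SD, n = 7) with the Fam3a virus. Its medians were 19.0 and 30.7 CPM. Ad-FAM3A1, Ad-FAM3A4 and Ad-FAM3A5 had 89.7, 196 and 206 CPM, and the other Ad-FAM3A aortas lay within the Ad-sham range of 10.3 to 34.4 CPM. The log2 fold change of Nr4a3 was 2.03 ± 0.62 against -0.74 for Nr4a1. By edgeR's quasi-likelihood test the adjusted p of Nr4a3 was 0.810, and its r with the score was 0.13. Rasd1, a glucocorticoid-induced Ras-like protein, averaged 43.3 ± 15.6 CPM in Ad-sham and 16.0 ± 6.20 CPM in Ad-FAM3A, and its log2 fold change was -1.43 ± 0.29 and its r 0.27. Klf4 had a log2 fold change of -0.06 ± 0.25.

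Of the components that act upstream, Srf and its ternary complex partner Elk1 both had an r of 0.62 with the score, and Mapk3 one of 0.46. Creb1 (-0.32), Mapk8 (-0.40) and Rps6ka3 (-0.30) ran the other way, and the AngII receptor gene Agtr1a had an r of 0.03. The mean of the 19 tested upstream genes had an r of 0.07, which ran from -0.23 without Ad-FAM3A2 to 0.25 without Ad-sham2. The mean of the inducible heat shock genes had an r of -0.33 with the score, which was -0.07 after centring on the group means and ran from -0.51 without Ad-FAM3A1 to -0.19 without Ad-sham6, while the r of Atf3 was 0.73 with Hspa1a, 0.62 with Dnajb1 and 0.61 with Hspa1b. The other 9 of the 12 had an r with Atf3 from -0.07 to 0.29, and Ad-FAM3A1 was the highest aorta for Hspa1a and Dnajb1 as it was for Atf3. Of that list 7 of 12 genes had an unadjusted p under 0.05, all higher in Ad-FAM3A aortas, against 5.91% of all genes in either direction, and 0 of the 12 were called by edgeR or by DESeq2.

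The genes whose levels followed the score most closely, by r over the 13 aortas among 13576 genes other than the 10 themselves, were Hoxa7 (0.87), Med16, Aknad1, Atp1b2 and Zfp36 (all 0.83), Il20rb (0.82), Pcgf2 (0.81), Cdh3 (0.80), Gtf3c1 and Tshz1 (both 0.79). Hoxa7, a homeobox gene of trunk position, ran from 5.84 CPM in Ad-FAM3A2 to 35.2 CPM in Ad-sham2. Those that ran most against it were Cstf2t (-0.85), Dus4l (-0.83), Ccne2 (-0.80), Nufip1 (-0.80) and Kbtbd8 (-0.79). These 15 are the extremes of a ranking and carry no test.

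Markers of cell types and library measures were set beside the score. All 8 smooth muscle markers had an r above 0 and 5 an r above 0.5, with an r of 0.47 for their mean (0.60 after centring on the group means). Their summed level ran from 3180 to 13543 CPM in Ad-sham and from 2442 to 19232 CPM in Ad-FAM3A aortas. Endothelial markers gave an r of 0.54, with 7 of 8 above 0 and sums of 1152 to 2562 CPM and 1060 to 2422 CPM. Fibroblast markers gave 0.45, with 7 of 8 above 0 and sums of 4562 to 13543 CPM and 2748 to 9226 CPM. Macrophage markers gave -0.40, with 1 of 8 above 0 and sums of 849 to 2265 CPM and 657 to 3715 CPM. The markers named in these 4 lists were above 0 in every library. Their part in the result was not tested beyond one value, that the median r of the 10 genes was 0.46 after a linear fit on the smooth muscle mean.

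The score's r with total counts was 0.28, with the number of genes detected -0.17 and with the mitochondrial share of counts, which ran from 8.13% to 17.7%, -0.15. Total counts ran from 14481179 to 19797407 per aorta, and the r of log2 CPM between any pair of aortas lay between 0.853 and 0.969.

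**Figure D5:**
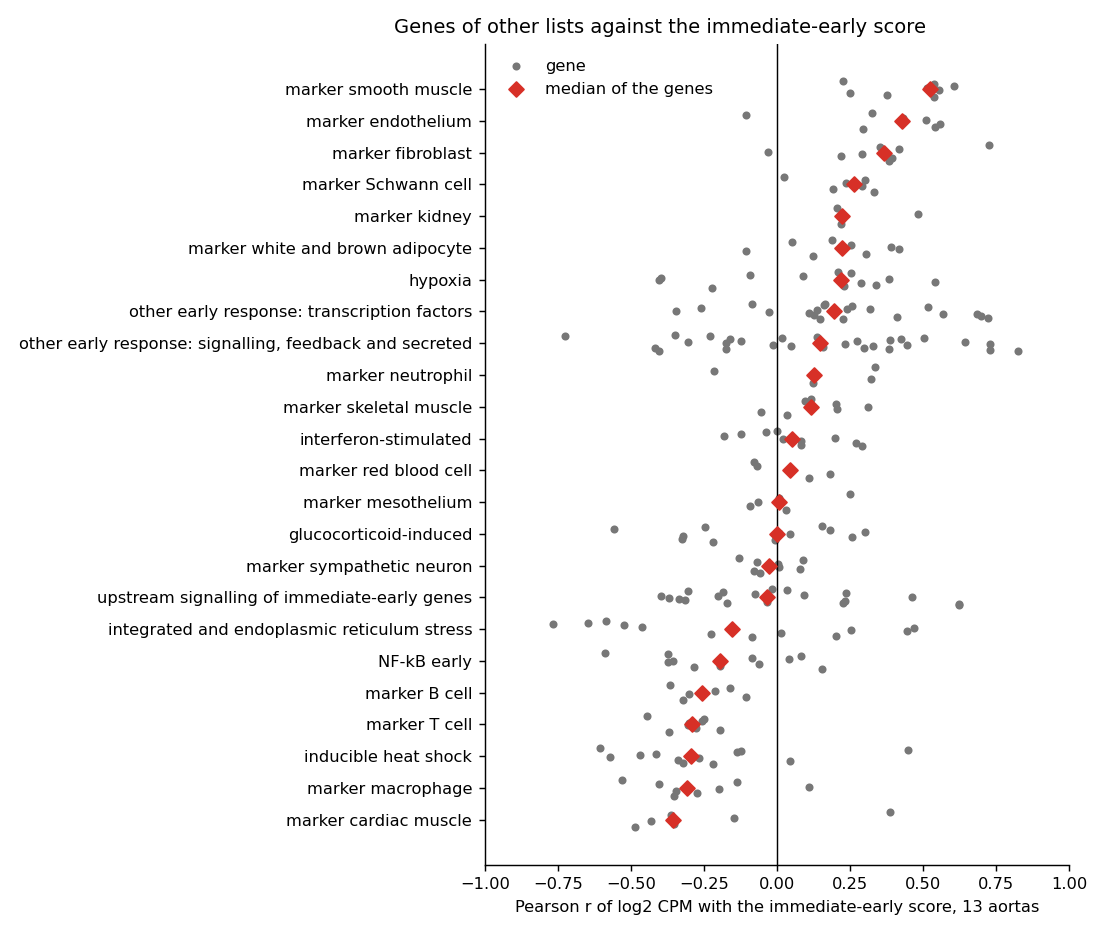
Pearson r of each gene's log2 CPM with the immediate-early score over 13 aortas (grey points), by list, with the list's median as a red diamond. The medians run from -0.36 for cardiac muscle markers to 0.52 for smooth muscle markers, and both lists of other early genes spread widely on either side of 0.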

How the data were processed

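Aortic RNA of 13 mice was sequenced, 1 library each. The authors filtered the reads, aligned them to GRCm38 with Hisat2, counted them per gene with FeatureCounts and deposited raw counts. The annotation release, strand setting and handling of multi-mapped reads are not given in the sources used here, and the labels and the methods name different extraction and library kits. Mean FPKM values per group were not used, and 0 sample columns were left unmapped. The 10 genes and all gene lists were chosen with earlier results of these data known.

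After TMM scaling and edgeR's filterByExpr, the groups were compared with edgeR 4.0.16 (quasi-likelihood test, Benjamini-Hochberg over 15811 genes, R 4.3.3), with the SE as the size of the log2 fold change over the square root of F. Calls needed an adjusted p under 0.05 with a log2 fold change beyond 1 in either direction. Log2 CPM used a prior count of 2. Correlations are Pearson's r over 13 aortas without p-values. The p-values measure the spread between aortas. The genes named are the 10, genes of the lists, Fam3a and, of genes with a symbol and a mean of at least 1 CPM other than the 10, the 10 highest and 5 lowest by r with the score. On simulated counts 164 of 200 changed genes were called, with 9 unchanged genes among 173 calls. Alternatives were DESeq2 1.42.0, limma-voom 3.58.1, other scalings, filters and prior counts, rank correlation, centring on group means, a replicate block and leaving out each aorta.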

Additional observations from a re-analysis of the deposited data

Results flagged for a closer look

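In Ad-sham1, Junb was at 4.87 log2 CPM where the other 5 Ad-sham aortas lay between 6.63 and 7.39, and its gap to the nearest of them was 0.70 of the group's range. In the same aorta Ier2 was at 4.50 log2 CPM against 5.75 to 6.34 in the others, a gap of 0.68 of the range. Both passed Dixon's limit for a single sample far from its group. Of 32 groups of values examined these 2 were marked, where chance marks about 1 in 20 groups, or 1.6. Without Ad-sham1 the log2 fold change of Junb was -1.31 ± 0.23 (SE) and that of Ier2 was -0.70 ± 0.17, with adjusted p of 0.655 and 0.744 by edgeR's quasi-likelihood test, so that neither was called with or without it. Ad-sham1 also had the highest mitochondrial share of counts, 17.7%, next to 17.4% in Ad-sham6, whose score was the second highest. It had the lowest smooth muscle marker sum of the Ad-sham aortas, 3180 CPM, and the highest cardiac muscle marker sum, 329 CPM. The part of these in the low values was not tested.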

How the results depend on the processing

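Of the 10 genes 0 were called under each alternative run, and the median log2 fold change kept its sign, from -0.69 to -0.23 over leaving out each aorta (without Ad-FAM3A1 and without Ad-sham2). DESeq2 called 10 of 30727 genes, against 0 of 15811 in the main test. At an unadjusted p under 0.05, 934 genes and 2 of the 10 passed. The sign of the log2 fold change of Fosb (0.08) turned with limma-voom (-0.35), with the replicate block (-0.37) and on leaving out aortas, with a range of -0.73 to 0.42. That of Egr2 (-0.09) ranged from -0.27 to 0.021 on leaving out aortas. That of Nr4a1 (-0.74) was -1.50 without Ad-FAM3A1 and -0.24 without Ad-sham2. The cause was not tested.

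The replicate numbers were shared by both groups, but the deviations of same-numbered aortas correlated from -0.33 to 0.45 and 1 of 6 Ad-sham aortas correlated best with its own number, so the numbers were not read as pairs. With the replicate block on numbers 1 to 6, 0 genes were called, 596 had an unadjusted p under 0.05, and the median log2 fold change of the 10 was -0.37.

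The median r of the 10 genes ranged from 0.43 to 0.58 over leaving out each aorta, was 0.51 with ranks and 0.42 after centring on group means, and was 0.65 (first component 67.6%) for the 8 genes other than Egr2 and Atf3. Leaving out Ad-FAM3A6 and Ad-FAM3A7, chosen after seeing the data because their B cell marker sums stood apart, gave 0.40. It also moved the r with the score of the interferon-stimulated list (0.09) to 0.44, of neutrophil markers (0.12) to 0.54, of T cell markers (-0.32) to 0.12, of B cell markers (-0.25) to 0.67 and of skeletal muscle markers (0.15) to 0.50. The r of the B cell markers was 0.13 with ranks, and that of the heat shock list (-0.33) was -0.074 after centring on group means. The other 1068 values kept their direction or moved by less than their spread. Depth limited Egr2 most, whose counting error was closest to its spread.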

Other observations

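Of the other lists, the mean of the integrated and endoplasmic reticulum stress genes had an r of -0.40 with the immediate-early score over the 13 aortas, where leaving out 1 aorta gave -0.54 to -0.16. With the same range behind each value, the r was -0.36 (-0.63 to -0.22) for early NF-kB targets, -0.19 (-0.32 to -0.08) for glucocorticoid-induced genes, 0.29 (0.12 to 0.44) for hypoxia genes and 0.09 (-0.10 to 0.29) for interferon-stimulated genes. Among cell type markers it was -0.38 (-0.51 to -0.25) for cardiac muscle, -0.32 (-0.42 to -0.16) for T cells, -0.25 (-0.37 to -0.04) for B cells, 0.27 (0.09 to 0.42) for kidney and 0.26 (0.11 to 0.40) for Schwann cells. It changed sign on leaving out 1 aorta for adipocytes (0.18, -0.01 to 0.35), skeletal muscle (0.15, -0.04 to 0.30), neutrophils (0.12, -0.14 to 0.29), red blood cells (0.04, -0.13 to 0.16), mesothelium (0.01, -0.14 to 0.15) and sympathetic neurons (-0.03, -0.13 to 0.11). Without both Ad-FAM3A6 and Ad-FAM3A7 the r was 0.67 for B cell and 0.12 for T cell markers. These are descriptions over libraries that also differ in the amount of each tissue, and no p was computed.

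The 3 Nr4a genes, which share a DNA site, differed in their pattern. Nr4a1 and Nr4a2 had r of 0.82 (Nr4a1 is 1 of the 10 genes in the score) and 0.70 with the score, and Nr4a3 one of 0.13 over all aortas and 0.48 after centring on group means. Of the 3 Jun genes, Jund was not among the 10 and had an r of 0.72. Nr4a3 was highest in Ad-FAM3A5 at 206 CPM, an aorta with a score of -0.47.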
